A study of Homo sapiens with 24 samples.

Results

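The centromere and kinetochore genes are 45 of the 57820 genes in the count tables, taken by gene symbol: the subunits of the inner centromere complex, of the outer kinetochore and of the spindle checkpoint, and the shugoshins. The inner class held 19 genes, of which 16 encode centromeric nucleosome and CENP proteins and 3 (HJURP, MIS18A and OIP5) load CENP-A. The outer kinetochore class held 15 genes and the checkpoint class 9, with the 2 shugoshin genes counted apart. Older symbols are kept as in the count tables: STRA13 encodes CENP-X, APITD1 CENP-S, ITGB3BP CENP-R, CASC5 KNL1, and SGOL1 and SGOL2 the proteins SGO1 and SGO2.

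The centromere is marked by nucleosomes that hold the histone H3 variant CENP-A, on which the CENP proteins of the inner complex sit throughout the cell cycle. In mitosis the outer kinetochore assembles on this base, and its NDC80 complex binds spindle microtubules. Kinetochores that are not attached recruit the checkpoint proteins of the BUB and MAD families, which hold back anaphase, while shugoshins protect the cohesin that joins sister chromatids. Transcripts of many of these genes are most abundant in cells between S phase and mitosis.

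RNA-seq was performed on 2 HNSCC cell lines labelled as tongue tissue, Cal33 and SAS, both listed as wild type. Each line had 4 groups of 3 replicates: 4.5 µM GSK-J1 with a 4 Gy x-ray dose, 4 Gy alone, 4.5 µM GSK-J1 alone, and sham. GSK-J1 inhibits the H3K27 demethylases UTX and JMJD3, and RNA was taken 24 h after treatment. All groups of a line share its culture medium, and the label sham names no vehicle, although the study's methods describe a DMSO control.

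The 24 libraries held 54200036 to 96848227 counts on the strand of the gene, and each of the 45 genes had at least 100 counts in every library (129 to 26560). All 45 were thus tested. Of the 10 squamous epithelial markers, each was at 1 CPM (counts scaled to TMM library size) or more in both lines. Of 13 markers of other cell types, 3 reached that level (VWF, CDH5 and COL1A1), and the summed level was 51.02 to 89.0 CPM in Cal33 and 9.599 to 95.44 CPM in SAS. In 2 SAS libraries, GSK-J1 replicate 1 and GSK-J1 with 4 Gy replicate 1, 15 genes transcribed in Cal33 but not in the other SAS libraries stood at 1.28 and 0.693% of their Cal33 level, against at most 0.00453% in the other 10. Counts of called genes under GSK-J1 with 4 Gy, against GSK-J1 and against 4 Gy, are given with and without these libraries. GSK-J1 against sham, the interaction, the class medians and the differences between the responses of the lines are given only with them. In Cal33, sham replicate 1 lay low for the genes studied here, with a median deviation of -0.437 in log2 CPM from the mean of the 12 Cal33 libraries.

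In sham cells the classes had similar levels per length of transcript in both lines. In sham libraries, CPM per kilobase of exon had a median of 7.19 over the 45 genes in Cal33 and 7.17 in SAS. The inner class had a median of 10.3 in Cal33 and 9.17 in SAS, the outer class 7.13 in Cal33 and 6.97 in SAS, and the checkpoint class 7.04 in Cal33 and 7.32 in SAS. CENPB, which binds the CENP-B box of alpha satellite DNA, was the most abundant transcript per kilobase in Cal33 (39.6), and BUB3, which holds BUB1 and BUBR1 at the kinetochore, in SAS (44.4). CENPP was the least abundant in both, at 1.1 in Cal33 and 0.776 in SAS. These levels are per kilobase of all annotated exons, so a gene with rarely used exons is understated.

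**Figure D1:**
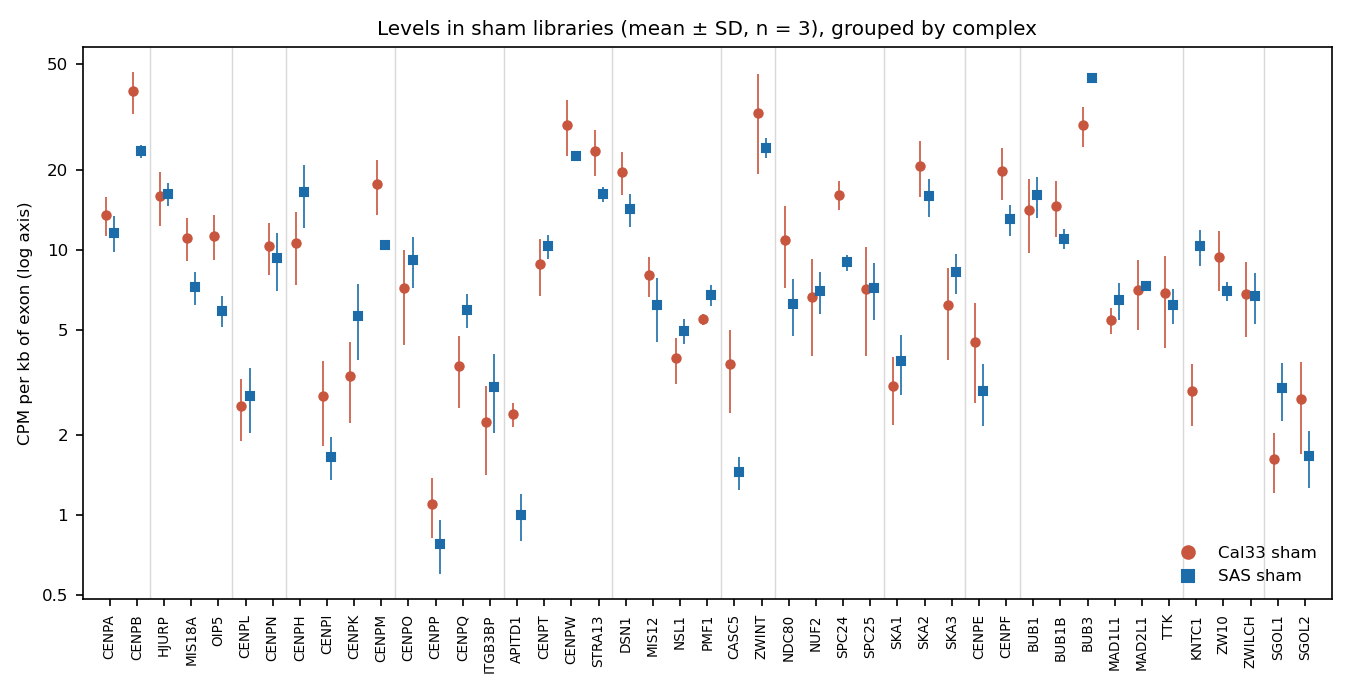
Level of each of the 45 genes in sham libraries of Cal33 (circles) and SAS (squares), as CPM per kilobase of exon on a log axis, mean and SD of 3 replicates, with vertical lines between complexes. KNTC1 stood at 2.93 in Cal33 against 10.3 in SAS and CASC5 at 3.71 in Cal33 against 1.45 in SAS, while the class medians lay close together.

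In SAS cells, 3 of the 45 genes were called higher after 4 Gy and none lower. These were MAD2L1, the checkpoint protein that inhibits CDC20, BUB1B, which encodes the checkpoint kinase BUBR1, and STRA13, whose product CENP-X is a histone-fold partner of CENP-S. The call was an adjusted p under 0.05 in edgeR's quasi-likelihood test with Benjamini-Hochberg adjustment over 23416 genes, of which 3.63% were called higher and 3.45% lower. Of the 45 genes, 34 had a higher fitted mean after 4 Gy, and the median log2 fold change was 0.17, against -0.02 over all genes tested. Of the genes that averaged 100 counts or more, as all 45 did, 4.94% were called higher and 46.3% had a higher fitted mean. The 3 called of the 45 lay near that share of calls. In bulk RNA, more cells that express a gene and more RNA per cell cannot be told apart.

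MAD2L1 (chromosome 4, 120976763 to 120988229, minus strand, hs37d5) had 52.0, 51.4 and 50.2 CPM after 4 Gy, against 40.0, 38.5 and 41.0 CPM in sham cells. STRA13 (chromosome 17, 79976578 to 79981983, minus strand) had 35.4, 30.5 and 30.1 CPM after 4 Gy, against 23.8, 24.8 and 22.0 CPM in sham cells. BUB1B (chromosome 15, 40453224 to 40513337, plus strand) had 57.0, 55.0 and 59.6 CPM after 4 Gy, against 42.2, 47.3 and 50.1 CPM in sham cells. In all 3 genes every irradiated library lay above every sham library. The log2 fold changes were 0.36 ± 0.08 for MAD2L1 (SE, edgeR adjusted p = 0.0169), 0.44 ± 0.10 for STRA13 (adjusted p = 0.0248) and 0.30 ± 0.08 for BUB1B (adjusted p = 0.046). BUB1B shares its strand with PAK6 over part of its span, so its count is less certain. Groups that did not overlap were found for 6 of the 45 genes, all higher after 4 Gy (these 3, CENPW, HJURP and ZWINT), against 13.0% of all genes tested higher and 13.8% lower. The 6 of 45 lay near the share of all genes that were higher.

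These 3 promoters, and that of CENPQ described later, are of genes called without a block and were chosen for holding a marked motif before the start. The 3 were called after 4 Gy and CENPQ under GSK-J1 with 4 Gy against GSK-J1. Of the other genes called there, NUF2 held a motif only after the start (TTTGAA at 17), and TTK had no matched window. The stretches shown are the 250 bases before the RefSeq start on GRCh38.p14, 5′ to 3′ on the strand of the gene. Capitals mark CCAAT on either strand (read as ATTGG on the strand opposite to the motif) or TTTGAA, the core of the cell cycle homology region. The intervals are chr4:120066849-120067098 (minus strand) for MAD2L1, chr17:82022879-82023128 (minus) for STRA13, chr15:40160819-40161068 (plus) for BUB1B and chr6:49463120-49463369 (plus) for CENPQ.
MAD2L1: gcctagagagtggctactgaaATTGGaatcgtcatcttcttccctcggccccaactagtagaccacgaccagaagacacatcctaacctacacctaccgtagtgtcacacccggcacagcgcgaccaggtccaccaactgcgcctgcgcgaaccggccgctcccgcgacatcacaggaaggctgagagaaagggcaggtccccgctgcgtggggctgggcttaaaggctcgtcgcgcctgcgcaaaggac
STRA13: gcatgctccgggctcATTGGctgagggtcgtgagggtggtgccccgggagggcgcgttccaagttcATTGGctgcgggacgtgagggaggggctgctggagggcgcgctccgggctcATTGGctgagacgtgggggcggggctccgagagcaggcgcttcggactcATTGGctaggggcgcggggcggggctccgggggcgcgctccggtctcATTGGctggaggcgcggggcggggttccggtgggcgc
BUB1B: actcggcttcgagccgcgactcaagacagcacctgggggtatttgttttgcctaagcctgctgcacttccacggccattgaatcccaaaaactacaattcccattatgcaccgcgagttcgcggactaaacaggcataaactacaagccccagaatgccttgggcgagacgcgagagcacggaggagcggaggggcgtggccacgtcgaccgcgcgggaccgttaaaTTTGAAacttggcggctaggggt
CENPQ: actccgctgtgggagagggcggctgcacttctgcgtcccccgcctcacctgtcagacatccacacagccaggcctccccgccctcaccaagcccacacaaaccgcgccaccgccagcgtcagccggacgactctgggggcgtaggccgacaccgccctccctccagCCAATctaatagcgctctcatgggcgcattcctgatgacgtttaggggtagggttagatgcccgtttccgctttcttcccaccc
The STRA13 promoter held 5 CCAAT motifs, all on the opposite strand, beginning at positions -235, -184, -133, -84 and -37 from the start. MAD2L1 held ATTGG at -229 and a TTTGAA 25 bases after the start, BUB1B a TTTGAA at -23, and CENPQ a CCAAT at -84.

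Windows of 300 bases (250 before and 50 after the start) were matched for 37 of the 45 genes. TTTGAA, on either strand, was in 14 of these 37 (37.8%), against 15.4% of the 27305 windows of all genes. By class it was in 4 of 15 inner, 7 of 14 outer and 3 of 6 checkpoint windows. CCAAT, on either strand, was in 21 of 37 (56.8%), against 35.7% of all windows, with 8 of 15 inner, 7 of 14 outer and 4 of 6 checkpoint windows. The windows of 8 genes held both motifs, and no match of one overlapped the other.

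Same-numbered SAS replicates deviated together from their group means (r across genes 0.411 to 0.666 for 4 Gy and sham), and fits that took the replicate number as a block called more genes. Over the 12 SAS libraries the blocked fit called 15 of the 45 higher and 1 lower after 4 Gy, where 11.3% of all genes were called higher and 13.2% lower (16.1 and 19.6% of those averaging 100 counts or more). Over the 6 libraries compared it called 14 higher and 0 lower, against 7.85 and 8.76% of all genes (11.1 and 13.2% of those averaging 100 counts or more). Each of the genes called higher in either blocked fit was higher in 3 of 3 same-numbered pairs. Blocked fits call genes on these same differences, so such counts of pairs, here and below, are no separate support for their calls.

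In the outer kinetochore, the 12-library blocked fit called 5 of 15 genes higher after 4 Gy. ZWINT, which links KNL1 to the ROD complex, had 65.5, 74.0 and 78.4 CPM after 4 Gy, against 49.0, 56.3 and 58.4 CPM in sham cells (log2 fold change 0.41 ± 0.12, adjusted p = 0.063 without the block and 0.000248 with it). SKA3, a subunit of the complex that holds kinetochores to microtubules, had 28.3, 31.5 and 37.3 CPM after 4 Gy, against 20.7, 22.0 and 28.4 CPM in sham cells (0.45 ± 0.14, adjusted p = 0.0704 without the block and 0.000225 with it). NUF2, the dimer partner of NDC80, had 25.8, 26.3 and 32.2 CPM after 4 Gy, against 18.0, 22.5 and 26.1 CPM in sham cells (0.34 ± 0.14, adjusted p = 0.15 without the block and 0.00891 with it). ZWINT did not overlap between the groups, while in SKA3 and NUF2 sham replicate 3 lay above the lowest irradiated library. NDC80 itself and SKA1 made up the 5.

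In the checkpoint class the 12-library blocked fit called 5 of 9 higher: MAD2L1, BUB1B, BUB1, TTK and ZWILCH. BUB1, the kinase that recruits other checkpoint proteins and marks the centromere for shugoshin, had 107.9, 105.1 and 151.7 CPM after 4 Gy, against 76.57, 88.96 and 109.3 CPM in sham cells (0.41 ± 0.17, adjusted p = 0.162 without the block and 0.00154 with it). Sham replicate 3 was above 2 of the irradiated libraries. In both groups replicate 3 was the highest of the 3.

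Of the 19 inner genes the 12-library blocked fit called 5 higher (STRA13, CENPO, CENPN, HJURP and CENPW) and CENPH lower. CENPO had 55.3, 61.0 and 64.1 CPM after 4 Gy, against 40.4, 43.4 and 60.0 CPM in sham cells (0.33 ± 0.17, adjusted p = 0.27 without the block and 0.00917 with it). The strand opposite to CENPO, where PTRHD1 and ADCY3 are annotated, gave more counts than CENPO itself in 13 of 24 libraries. HJURP, the chaperone that deposits CENP-A, had 68.3, 65.7 and 75.9 CPM after 4 Gy, against 52.0, 61.2 and 63.1 CPM in sham cells (0.25 ± 0.09, adjusted p = 0.121 without the block and 0.0121 with it). CENPA, its cargo, did not pass in any of these fits, with 22.7, 19.2 and 22.7 CPM after 4 Gy, against 18.0, 22.9 and 24.6 CPM in sham cells (-0.02 ± 0.14, adjusted p = 0.963 without the block). CENPH, a subunit of the CENP-H, I, K and M module, had 27.4, 26.3 and 27.5 CPM after 4 Gy, against 27.1, 32.8 and 45.6 CPM in sham cells. Its fold change was -0.38 ± 0.14 (adjusted p = 0.13 without the block, 0.0373 in the 12-library blocked fit and 0.0627 in that of 6 libraries), and the sham libraries spread far more than the irradiated ones.

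**Figure D2:**
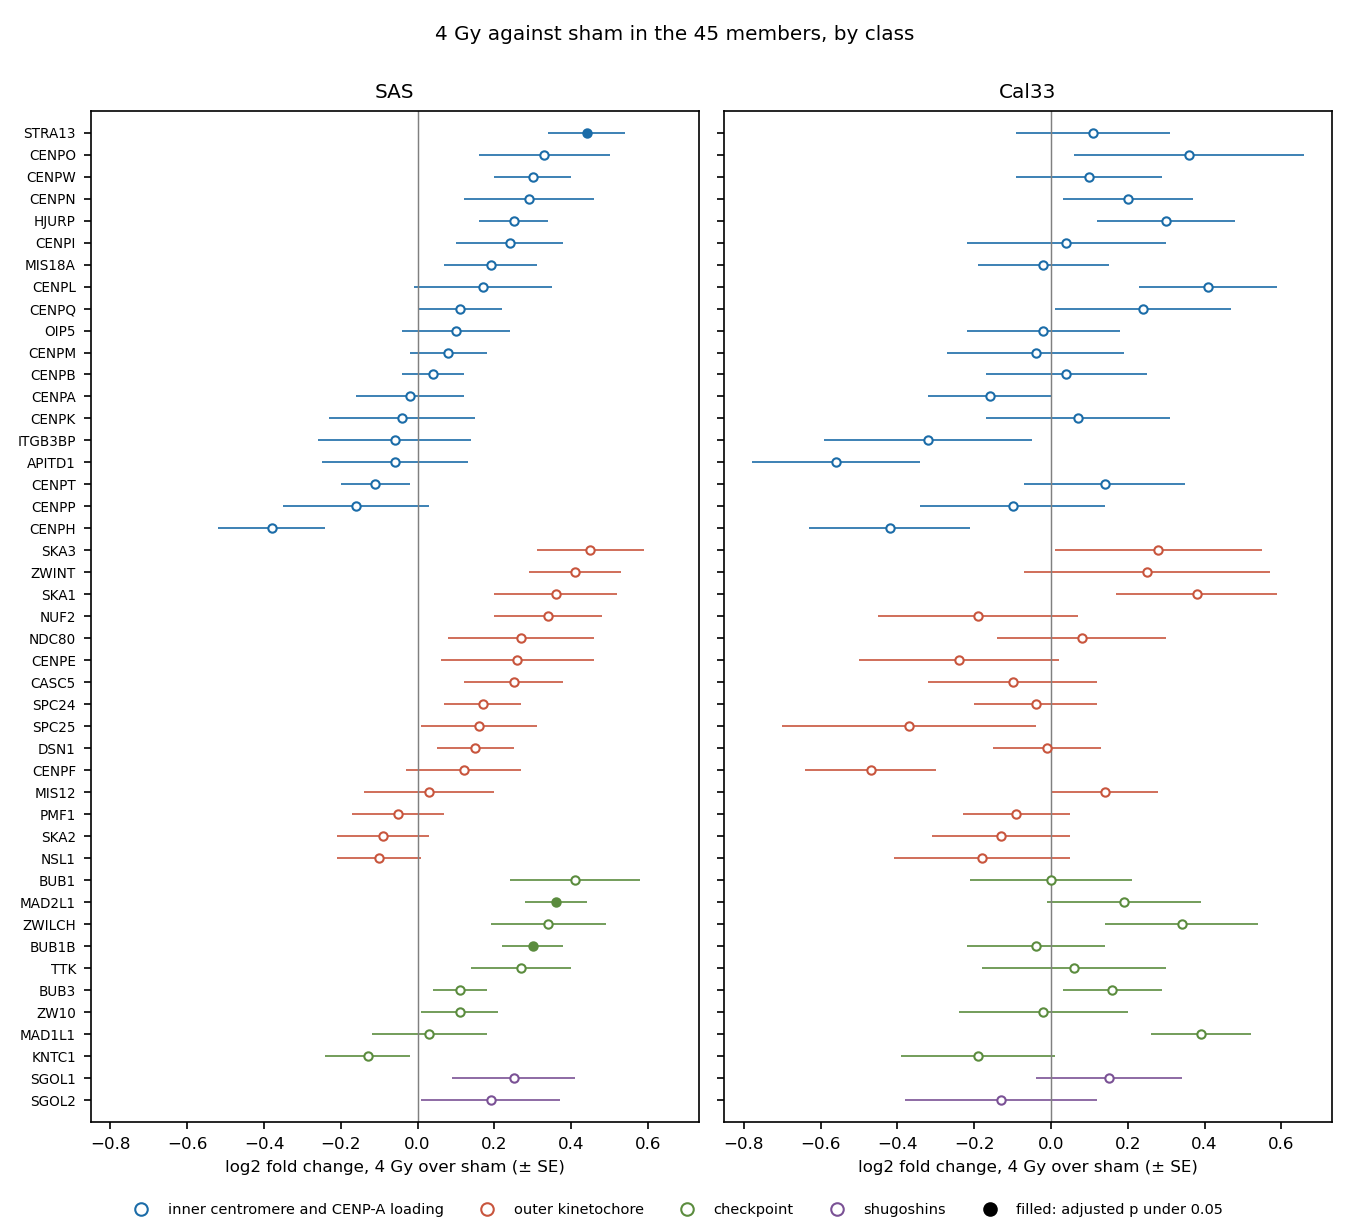
Log2 fold change of 4 Gy over sham with its SE for each of the 45 genes, SAS left and Cal33 right, grouped by class, from edgeR without a block. Filled symbols mark the called genes, MAD2L1, STRA13 and BUB1B in SAS and none in Cal33, and 34 of the 45 values lie above 0 in SAS against 22 in Cal33.

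By class, the median log2 fold change after 4 Gy in SAS was 0.10 for the inner genes (12 of 19 with a higher fitted mean) and 0.21 for the outer and checkpoint genes as 1 set (20 of 24). The 12-library blocked fit called 5 of 19 inner genes higher and 10 of 24 outer and checkpoint genes. Whether the classes differ was not tested. Related gene lists had medians in the same direction. Of 24 other centromere genes 2 were called higher (CDC20 and TRIP13) and 1 lower (CLASP1), of 28 G2/M and spindle genes 3 higher, and of 34 G1/S and replication genes 8 higher, with none of the last 2 lists lower. Of all genes 3.63% were called higher and 3.45% lower (4.94 and 5.16% of those averaging 100 counts or more). The 12-library blocked fit called 7 higher and 1 lower, 12 higher, and 25 higher in these lists, each beside the 11.3% of all genes called higher (16.1% of those averaging 100 counts or more). The median log2 fold change of the lists was 0.17, 0.14 and 0.25. Such genes vary with cell cycle phase, whose part in the kinetochore result was not tested.

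The 3 calls of the fit without a block rested on single libraries. Without any 1 of the 3 irradiated libraries none of the 45 was called, without sham replicate 1 CENPH alone (lower, -0.53, adjusted p = 0.0344), without sham replicate 2 STRA13 alone, and without sham replicate 3 MAD2L1, BUB1B, SKA1, SKA3 and ZWILCH.

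To follow irradiation under the inhibitor, GSK-J1 with 4 Gy was compared with GSK-J1 alone, and 4 of the 45 genes rose in SAS and none fell: MAD2L1, CENPQ, TTK and NUF2. Of all 23416 genes 2.43% were called higher and 1.99% lower (3.19 and 3.15% of those averaging 100 counts or more). The median log2 fold change of the 45 was 0.21 and 36 had a higher fitted mean, against a median of 0.00 over all genes tested.

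MAD2L1 had 56.1, 56.0 and 50.8 CPM under GSK-J1 with 4 Gy, against 41.6, 42.8 and 36.2 CPM under GSK-J1 (log2 fold change 0.43 ± 0.08, edgeR adjusted p = 0.0104). CENPQ, of the CENP-O module (chromosome 6, 49431091 to 49460820, plus strand), had 11.65, 12.91 and 11.97 CPM under GSK-J1 with 4 Gy, against 8.31, 9.14 and 8.41 CPM under GSK-J1 (0.50 ± 0.11, adjusted p = 0.0286). TTK, the MPS1 kinase that starts checkpoint signalling (chromosome 6, 80713604 to 80752244, plus strand), had 36.0, 41.7 and 39.4 CPM under GSK-J1 with 4 Gy, against 24.5, 29.2 and 26.3 CPM under GSK-J1 (0.55 ± 0.13, adjusted p = 0.0304). For NUF2 (chromosome 1, 163236366 to 163325554, plus strand) the values were 31.6, 32.1 and 33.7 CPM under GSK-J1 with 4 Gy, against 19.4, 24.7 and 23.6 CPM under GSK-J1 (0.53 ± 0.14, adjusted p = 0.049). None of the 4 overlapped between the groups. Of all 45 genes, 20 lay wholly above and 1 (CENPT) wholly below, against 14.0% of all genes tested wholly above and 26.0% either way. A block over the 6 libraries compared called 21 higher and 1 lower, where 10.1% of all genes were called in each direction.

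When same-numbered replicates were blocked over all 12 libraries, 21 of the 45 genes were called higher and 2 lower under GSK-J1 with 4 Gy, where 10.4% of all genes were called higher and 21.5% in either direction (14.8% higher and 16.9% lower among those averaging 100 counts or more). The classes shared in it, with 5 of 19 inner, 8 of 15 outer and 6 of 9 checkpoint genes and both shugoshins higher. CENPE, the kinesin that carries chromosomes to the plate, had 35.2, 41.6 and 41.0 CPM under GSK-J1 with 4 Gy, against 21.0, 30.5 and 28.2 CPM under GSK-J1 (0.58 ± 0.10, adjusted p = 0.00138 with the block). SGOL2 had 13.0, 14.5 and 14.1 CPM under GSK-J1 with 4 Gy, against 7.84, 11.4 and 8.17 CPM under GSK-J1, and its adjusted p was 0.00613 with the block. SKA3 had 30.5, 35.9 and 38.4 CPM under GSK-J1 with 4 Gy, against 22.9, 25.2 and 27.4 CPM under GSK-J1, with an adjusted p of 0.000191 in that fit. In each of these, as in all 21, 3 of 3 same-numbered pairs were higher.

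The 2 genes called lower were CENPT and PMF1. CENPT, which bridges centromeric DNA to the NDC80 complex (chromosome 16, 67862060 to 67881714, minus strand), had 48.0, 44.1 and 43.6 CPM under GSK-J1 with 4 Gy, against 56.8, 53.9 and 48.5 CPM under GSK-J1 (-0.23 ± 0.05, adjusted p = 0.0079 with the block). PMF1, a subunit of the MIS12 complex that shares its locus with the PMF1-BGLAP read-through, had 17.9, 14.0 and 13.8 CPM under GSK-J1 with 4 Gy, against 18.8, 18.1 and 17.1 CPM under GSK-J1 (-0.25 ± 0.07, adjusted p = 0.0244 with the block). Both were lower in 3 of 3 same-numbered pairs, and PMF1 overlapped between the groups.

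Both SAS libraries with Cal33 transcripts are in this comparison. Without them the fit without a block called none of the 45, the 12-library blocked fit 11 higher and 1 lower (4.88 and 5.15% of all genes), and the 6-library blocked fit 17 higher and 1 lower (8.01 and 7.67% of all genes). TTK kept a log2 fold change of 0.55 in both blocked fits without them and CENPQ one of 0.50, while PMF1 was the gene called lower. Leaving out 1 library of either group left 1 to 3 genes called without a block, with MAD2L1 among them each time. Leaving out sham replicate 3, which is in neither group, gave 8.

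**Figure D3:**
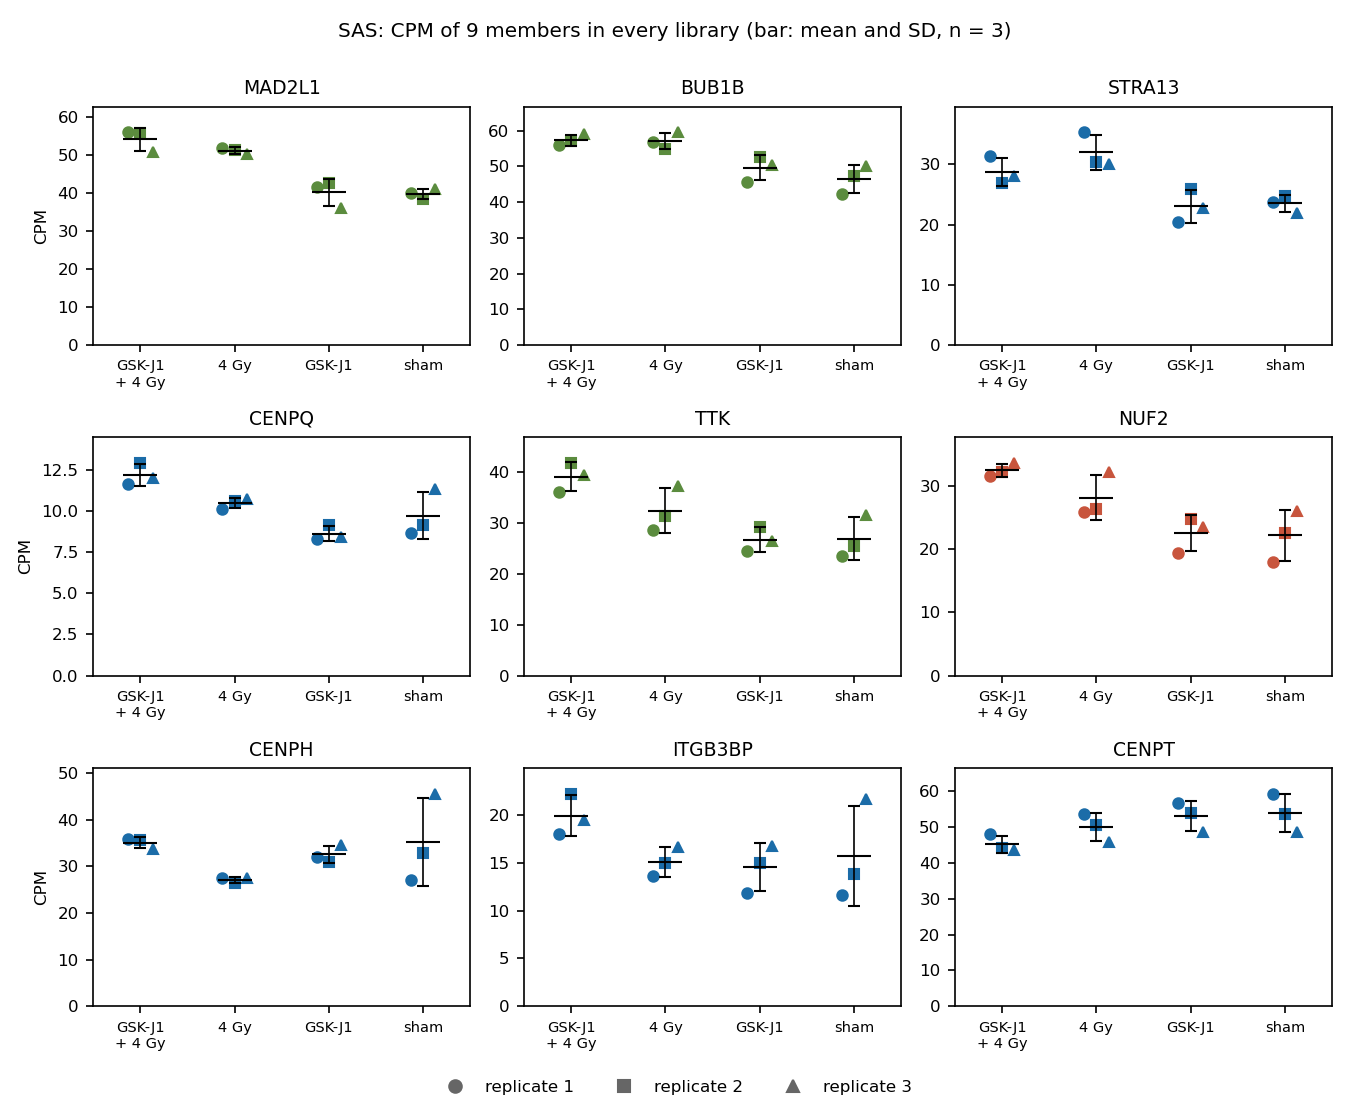
CPM of 9 genes in each of the 12 SAS libraries, in the order GSK-J1 with 4 Gy, 4 Gy, GSK-J1 and sham, with the mean and SD of 3 replicates. MAD2L1 averages 54.3 and 51.2 CPM in the irradiated groups and 40.2 and 39.8 CPM in the others, while CENPH is lowest after 4 Gy alone at 27.1 CPM.

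GSK-J1 added to 4 Gy was compared with 4 Gy alone to ask what the inhibitor changes in irradiated cells. Without a block none of the 45 genes passed in SAS, nor did any of the 23416 genes tested, with 438 genes and 1 of the 45 (CENPH) at an unadjusted p under 0.05, and DESeq2 also called none. The median log2 fold change was 0.08 with 32 of 45 higher, against 0.00 over all genes. By class it was 0.04 for the inner genes (11 of 19 higher), 0.11 for the outer (11 of 15) and 0.08 for the checkpoint genes (8 of 9).

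Same-numbered libraries of these groups deviated together (r across genes 0.705 to 0.794). The 12-library blocked fit called none of the 45 and none of all genes, with 11 of the 45 and 1613 of all 23416 genes at an unadjusted p under 0.05. Blocking the 6 libraries alone gave 13 of the 45 higher and 2 lower, where 4.47% of all genes were called higher and 3.51% lower (7.84 and 5.93% of those averaging 100 counts or more). That fit has 2 residual degrees of freedom and a coefficient of variation of 0.03667, against 0.08176 with the 12 libraries, so these calls depend on which libraries set the spread.

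The genes called higher were CENPH, ITGB3BP, CENPK, CENPI and CENPQ of the inner class, CENPE, CASC5, NUF2 and SPC25 of the outer class, TTK, KNTC1 and ZWILCH of the checkpoint, and SGOL2. CENPH (chromosome 5, 68485375 to 68506184, plus strand) had 35.9, 35.6 and 33.6 CPM under GSK-J1 with 4 Gy, against 27.4, 26.3 and 27.5 CPM after 4 Gy. Every combination library lay above every library of 4 Gy alone, and the log2 fold change was 0.37 ± 0.04 (adjusted p = 9.75e-07 in the 6-library blocked fit, 0.705 in the 12-library one and 1.0 without a block). GSK-J1 alone and sham overlapped in CENPH, with 32.1, 31.0 and 34.6 CPM under GSK-J1 and 27.1, 32.8 and 45.6 CPM in sham cells.

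ITGB3BP, the CENP-R subunit beside CENP-Q (chromosome 1, 63906441 to 64059392, minus strand), had 18.1, 22.3 and 19.5 CPM under GSK-J1 with 4 Gy, against 13.6, 14.9 and 16.7 CPM after 4 Gy (0.39 ± 0.06, adjusted p = 1.56e-05 in the 6-library blocked fit). The opposite strand of ITGB3BP, which holds EFCAB7 and PGM1, gave more counts than the gene in 18 of 24 libraries. CENPE had 35.2, 41.6 and 41.0 CPM under GSK-J1 with 4 Gy, against 26.1, 28.8 and 39.1 CPM after 4 Gy (0.33 ± 0.05, adjusted p = 0.000136 in that fit). SGOL2 had 13.0, 14.5 and 14.1 CPM under GSK-J1 with 4 Gy, against 10.3, 10.2 and 12.1 CPM after 4 Gy (0.34 ± 0.06, adjusted p = 0.000254). The groups did not overlap in ITGB3BP and SGOL2, while in CENPE replicate 3 after 4 Gy lay above replicate 1 of the combination.

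TTK had 36.0, 41.7 and 39.4 CPM under GSK-J1 with 4 Gy, against 28.6, 31.2 and 37.3 CPM after 4 Gy (0.27 ± 0.05, adjusted p = 0.000462 in the 6-library blocked fit). CASC5, the KNL1 scaffold that docks the BUB proteins, had 20.1, 20.6 and 19.7 CPM under GSK-J1 with 4 Gy, against 15.4, 15.8 and 19.0 CPM after 4 Gy (0.26 ± 0.06, adjusted p = 0.00241). SPC25, of the NDC80 complex, had 15.0, 16.5 and 17.5 CPM under GSK-J1 with 4 Gy, against 13.1, 13.2 and 15.6 CPM after 4 Gy (0.22 ± 0.05, adjusted p = 0.00613). Of these, CASC5 did not overlap between the groups. Groups that did not overlap were found for 8 of the 45, all higher (these being CASC5, CENPH, CENPI, CENPQ, ITGB3BP, KNTC1, OIP5 and SGOL2), against 6.01% of all genes higher and 3.82% lower.

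The 2 genes called lower were both of the CENP-T, W, S and X group. CENPT had 48.0, 44.1 and 43.6 CPM under GSK-J1 with 4 Gy, against 53.6, 50.6 and 45.7 CPM after 4 Gy (-0.14 ± 0.04, adjusted p = 0.0224 in the 6-library blocked fit). STRA13 had 31.4, 26.9 and 28.0 CPM under GSK-J1 with 4 Gy, against 35.4, 30.5 and 30.1 CPM after 4 Gy (-0.15 ± 0.04, adjusted p = 0.0233). Both were lower in 3 of 3 pairs, although the groups overlapped. The 4 Gy libraries are shared by this comparison and by 4 Gy against sham, where STRA13 rose and CENPH fell in the 12-library blocked fit, and the values of both comparisons rest on them.

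Without the 2 libraries with Cal33 transcripts, the 6-library blocked fit called 7 higher (CENPH, ITGB3BP, CENPE, SGOL2, TTK, SPC25 and CENPK) and none lower, at 1 residual degree of freedom, against 1.85 and 1.56% of all genes. CENPH was then at 0.36 (adjusted p = 2.48e-06) and ITGB3BP at 0.39 (adjusted p = 5.57e-06). In the related lists, the blocked fit of all 6 libraries called 4 of 24 other centromere genes and 8 of 28 G2/M and spindle genes higher. It called 0 of 34 G1/S and replication genes higher, and none lower in any of the 3 lists. That fit called 4.47% of all genes higher and 3.51% lower (7.84 and 5.93% of those averaging 100 counts or more).

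**Figure D4:**
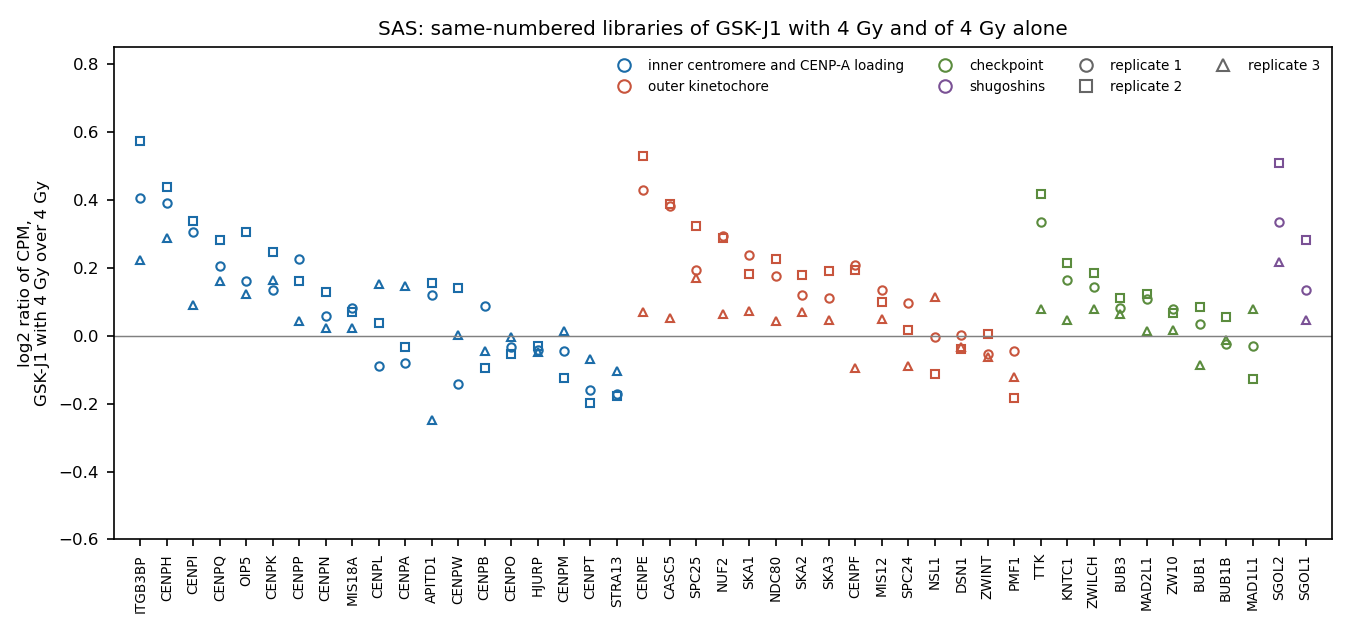
Log2 ratio of CPM under GSK-J1 with 4 Gy over 4 Gy for each same-numbered pair of SAS libraries, 45 genes grouped by class, 3 points a gene. In CENPH, ITGB3BP, CENPE and SGOL2 all 3 pairs lie above 0, in CENPT and STRA13 all 3 lie below 0.

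Under GSK-J1 alone none of the 45 genes was called in SAS. Without a block none of 23416 genes was called either (486 at an unadjusted p under 0.05, none of them among the 45), DESeq2 called 3 genes and none of the 45, and the fits blocked over 12 and 6 libraries called 10 and 596 genes (0.0427 and 2.59%) and again none of the 45. The smallest unadjusted p among the 45 without a block was that of CENPQ, with 8.31, 9.14 and 8.41 CPM under GSK-J1, against 8.66, 9.11 and 11.3 CPM in sham cells (-0.17 ± 0.11, edgeR adjusted p = 1.0). CENPW (0.14 ± 0.10) and MIS18A (0.15 ± 0.12) followed. The median log2 fold change over the 45 was 0.03.

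The interaction of GSK-J1 and 4 Gy asks whether irradiation acts differently with the inhibitor. In SAS none of the 45 passed (adjusted p = 1.0 in edgeR), none of all genes passed, and 399 genes were at an unadjusted p under 0.05, as were 2 of the 45, with DESeq2 calling none. These were CENPQ, at 0.39 ± 0.16, and CENPH, at 0.48 ± 0.20, so the larger counts of calls under GSK-J1 with 4 Gy against GSK-J1 than after 4 Gy against sham are not shown to differ.

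**Figure D5:**
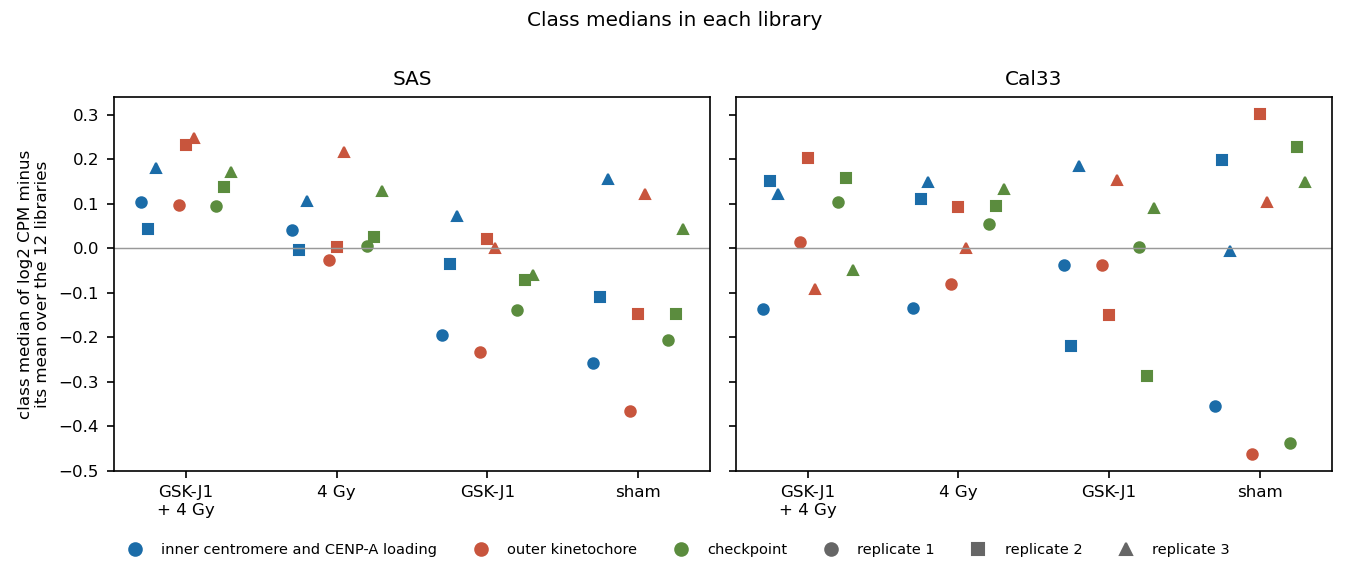
Median over each class of log2 CPM minus the gene's mean over the 12 libraries of the line, for every library, with SAS left and Cal33 right. In SAS all libraries under GSK-J1 with 4 Gy lie above 0 in every class, while Cal33 groups overlap and sham replicate 1 of Cal33 lies lowest.

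In SAS the class medians per library, taken from the values tested above, were highest under GSK-J1 with 4 Gy within each replicate number. The order of the other groups varied. Over the outer and checkpoint genes, the median deviation of log2 CPM from the 12-library mean was 0.096, 0.174 and 0.204 under GSK-J1 with 4 Gy, -0.019, 0.012 and 0.181 after 4 Gy, -0.193, -0.049 and -0.029 under GSK-J1, and -0.326, -0.148 and 0.054 in sham cells. Over the inner genes it was 0.103, 0.043 and 0.18 under GSK-J1 with 4 Gy, 0.041, -0.004 and 0.107 after 4 Gy, -0.194, -0.035 and 0.073 under GSK-J1, and -0.257, -0.11 and 0.155 in sham cells. Replicate 3 was the highest of its group in all 8 of these sets and replicate 1 the lowest in 6, and the inner genes of sham replicate 3 lay above those of all 3 libraries treated with 4 Gy alone. In the outer and checkpoint genes, sham replicate 3 lay above replicates 1 and 2 of 4 Gy alone. GSK-J1 with 4 Gy and GSK-J1 did not overlap in the outer and checkpoint genes, but did in the inner genes.

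In Cal33 cells, none of the 45 genes passed the test after 4 Gy, where 3.47% of 24351 genes were called higher and 2.81% lower. None of the genes in the lists of other centromere genes, of G2/M and spindle genes and of G1/S and replication genes was called either. Of the 45, 4 were at an unadjusted p under 0.05, against 5459 of the 24351 genes. The median log2 fold change of the 45 was 0.00, and 22 had a higher fitted mean. DESeq2, which called 6.96% of all genes higher, called 1 of the 45, MAD1L1, which anchors MAD2 at unattached kinetochores. It had 49.6, 50.1 and 55.6 CPM after 4 Gy, against 44.2, 38.4 and 36.1 CPM in sham cells (0.39 ± 0.13, adjusted p = 0.0887 in edgeR and 0.0407 in DESeq2). CENPF, a large coiled-coil protein of the outer kinetochore, had 170.1, 199.5 and 157.6 CPM after 4 Gy, against 179.6, 265.0 and 283.8 CPM in sham cells (-0.47 ± 0.17, edgeR adjusted p = 0.119). APITD1 had 3.72, 5.74 and 5.16 CPM after 4 Gy, against 7.99, 6.88 and 6.72 CPM in sham cells (-0.56 ± 0.22, adjusted p = 0.146), and its count shares a locus with the APITD1-CORT read-through. The groups of MAD1L1, HJURP and APITD1 did not overlap, 2 genes above and 1 below, against 13.4 and 12.4% of all genes. Without sham replicate 1, which lay low for most of the 45, CENPF alone was called (lower, -0.63, adjusted p = 0.0484), and without sham replicate 2 CENPL alone (higher, 0.66, adjusted p = 0.0386).

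Under GSK-J1 with 4 Gy against GSK-J1, Cal33 again had none of the 45 called without a block, with 3.04% of all genes higher and 2.07% lower. At an unadjusted p under 0.05 were 3 of the 45 and 5190 of all 24351 genes. Replicate numbers paired these groups (r across genes 0.16 to 0.691). The 12-library blocked fit, which takes in the sham libraries that the numbers did not pair, called MAD1L1 alone (5.04% of all genes higher), and the blocked fit of 6 libraries 5 higher (MAD1L1, CENPL, SKA1, SKA3 and CENPO) and 1 lower (APITD1), against 10.0 and 8.37% of all genes. MAD1L1 had 48.9, 47.6 and 63.2 CPM under GSK-J1 with 4 Gy, against 39.7, 38.5 and 40.3 CPM under GSK-J1 (0.42 ± 0.12, adjusted p = 0.00985 in the 6-library blocked fit). APITD1 had 4.01, 6.97 and 4.83 CPM under GSK-J1 with 4 Gy, against 7.52, 7.88 and 8.64 CPM under GSK-J1 (-0.64 ± 0.17, adjusted p = 0.00675). CENPL, which binds CENP-A nucleosomes as the partner of CENP-N, had 15.8, 18.6 and 19.3 CPM under GSK-J1 with 4 Gy, against 12.5, 11.7 and 14.5 CPM under GSK-J1 (0.48 ± 0.13, adjusted p = 0.0109). In all 3 the groups did not overlap, as in SKA1 and ZWILCH (higher) and CENPF (lower), 4 genes above and 2 below of 45, against 13.2 and 12.9% of all genes.

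No gene of the 45 was called under GSK-J1 in Cal33, alone or added to 4 Gy. Against sham none of 24351 genes passed (215 at an unadjusted p under 0.05, none of the 45), and against 4 Gy none passed without a block (244 genes at an unadjusted p under 0.05, none of the 45), with 0 calls by DESeq2 in both. Blocking the 6 libraries called 127 genes under GSK-J1 with 4 Gy against 4 Gy, 0.515% of those tested, and none of the 45. CENPH, called in the 6-library blocked fit of SAS, had 22.4, 24.4 and 17.7 CPM under GSK-J1 with 4 Gy, against 21.2, 19.2 and 15.8 CPM after 4 Gy in Cal33. It was higher in 3 of 3 same-numbered pairs, with a log2 fold change of 0.20 ± 0.21 (edgeR adjusted p = 1.0 without a block).

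The responses of the lines were compared in 1 fit of all 24 libraries. None of the 45 genes was called different between Cal33 and SAS in any of the 4 comparisons by edgeR or by DESeq2, both without a block. For 4 Gy against sham 0.427% of all 24597 genes differed. At an unadjusted p under 0.05 were 2466 of all genes and 1 of the 45, CENPF (Cal33 minus SAS -0.61 ± 0.24, adjusted p = 0.355 in edgeR). For GSK-J1 with 4 Gy against GSK-J1 0.232% of all genes differed and 2432 were at an unadjusted p under 0.05. Of the 45, MAD1L1 was the 1 under that p (0.44 ± 0.20, adjusted p = 0.469 in edgeR). None of the 45 was under that p for GSK-J1 against sham (394 of all genes) or for GSK-J1 with 4 Gy against 4 Gy (383 of all genes). The median difference for 4 Gy against sham was -0.14, with 10 of 45 larger in Cal33. Without a block, the calls in SAS and their absence in Cal33 are therefore not shown to differ. With the replicate number as a block within each line, 2.57% of all genes were called different for 4 Gy against sham. The calls of that fit among the 45 are not given here. The common coefficient of variation was 0.2218 in Cal33 and 0.1608 in SAS.

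Sham cells of the lines differed in 24 of the 45 genes, close to the 54.5% of all genes tested that differed. Of the 45 genes, 18 were higher in Cal33 sham than in SAS sham and 6 lower (edgeR, adjusted p under 0.05), and 27.2% of all genes were called in each direction. Of 13345 genes that averaged 100 counts or more, 4106 were called higher and 4636 lower. Of the 15 outer genes 7 were called higher and 0 lower, with 8 higher and 3 lower of the 19 inner genes and 2 each way of the 9 checkpoint genes. These counts rest in part on single libraries. Without Cal33 sham replicate 2, 10 of the 45 were called higher and 10 lower, with NSL1, SKA1 and SKA3 of the outer class among the lower. Leaving out any other sham library of the lines gave 12 to 21 higher and 4 to 7 lower, and PMF1 was called lower without SAS sham replicate 3. KNTC1, the ROD subunit of the complex that brings dynein to kinetochores, had 24.6, 38.4 and 42.0 CPM in Cal33 sham, against 93.9, 109.8 and 128.8 CPM in SAS sham (log2 fold change -1.82 ± 0.17, adjusted p = 1.24e-08). CASC5 had 23.9, 48.8 and 47.6 CPM in Cal33 sham, against 11.8, 14.6 and 15.7 CPM in SAS sham (1.36 ± 0.20, adjusted p = 4.65e-06). For both genes the lines did not overlap in any sham library.

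The other genes with the largest differences were APITD1 (1.26 ± 0.21), OIP5 (0.94 ± 0.17), SPC24 (0.84 ± 0.14) and NDC80 (0.80 ± 0.22), which were higher in Cal33, and SGOL1 (-0.88 ± 0.18), CENPK (-0.75), CENPQ (-0.70) and CENPH (-0.64), which were lower. OIP5, of the MIS18 complex, had 11.6, 17.6 and 15.0 CPM in Cal33 sham, against 5.80, 7.41 and 7.47 CPM in SAS sham. SGOL1 had 4.61, 7.23 and 7.78 CPM in Cal33 sham, against 8.45, 10.3 and 13.8 CPM in SAS sham. A fit of the 6 sham libraries alone called 12 higher and 4 lower, so the counts depend on which libraries set the spread.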

How the data were processed

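RNA-seq libraries (stranded total RNA, paired-end 2 × 100 bp) of Cal33 and SAS cells were aligned by the authors to hs37d5 with STAR 2.5.3a, handled with SAMtools 1.6 and counted per gene with featureCounts of Subread 1.5.1. The counts deposited are raw, unfiltered and not normalized. Analyses took the sense-strand counts, 94.43 to 95.18% of the stranded total. No source states separate cultures, so p-values measure the spread between these samples, which may be technical.

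Each line was fitted in edgeR 4.0.16 (R 4.3.3; TMM, quasi-likelihood F test on group means over 12 libraries) on genes averaging 1 count or more, 23416 in SAS and 24351 in Cal33, and both lines on 24597, with Benjamini-Hochberg adjustment and calls under 0.05. Alternatives were the replicate number as a block over 12 or 6 libraries (groups counted as paired when all deviations of same-numbered libraries correlated above 0.1, as they did for all SAS groups and for the treated Cal33 groups but not for Cal33 sham), DESeq2 1.42.0 and its size factors, other count filters, unstranded counts, all 24 libraries in the fit, and leaving libraries out. The blocked fits without the 2 SAS libraries that hold Cal33 transcripts were chosen after seeing the data. The edgeR fit, with and without a block, was tested on counts simulated for the 6 SAS libraries of 4 Gy and sham. The other fits were not tested in this way.

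Genes given per library were those called (up to 8 a comparison, smallest p), else the 3 with the smallest p, and 1 or more of each class. Members and gene lists were chosen with earlier results of these data known. Promoter sequences came from RefSeq (GRCh38.p14), with 1 window a gene.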

Additional observations from a re-analysis of the deposited data

Results flagged for a closer look

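The counts on the opposite strand, which enter only the alternative with unstranded counts, exceeded those of CENPP in each of the 24 libraries. CENPP encodes the CENP-P subunit, and the ratio of opposite to own strand was 1.3 in the lowest library and 3.02 in the highest, with NOL8, IPPK and ECM2 annotated opposite to it. The ratio was below 0.02 in every library for 36 of the 45 genes. Groups of 3 replicates were not tested for outlying samples.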

How the results depend on the processing

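After 4 Gy against sham in SAS, 3 of the 45 genes were called. The number was 6 with DESeq2, 6 with a mean of at least 10 counts, 16 with the replicate block over 12 libraries, 14 with the block over 6, 14 with the block over 12 without the 2 SAS libraries with Cal33 transcripts, 0 with all 24 libraries in the fit, and 0 to 5 leaving out each library. Calls rose among all genes too, from 7.08% without a block to 15.5% with DESeq2, 24.5% with the block over 12 and 16.6% over 6. The block over 12 without the 2 SAS libraries called 20.8% of all genes. For GSK-J1 with 4 Gy against GSK-J1 in SAS the 4 calls became 10 with DESeq2, 23 with the block over 12 libraries, 22 with the block over 6, 0 with all 24 libraries, and 1 to 3 leaving out each library of the 2 groups. Without the 2 SAS libraries they became 0, 12 with the block over 12 and 18 with the block over 6. Of all genes, 4.42% were called without a block, 12.7% with DESeq2, 21.5% with the block over 12 and 20.2% over 6. Without the 2 SAS libraries the blocked shares were 10.0% over 12 and 15.7% over 6. GSK-J1 with 4 Gy against 4 Gy in SAS had 0 calls, 15 with the block over 6 libraries and 7 with that block without the 2 SAS libraries. These 2 blocked fits called 7.98 and 3.41% of all genes. In Cal33, 4 Gy against sham had 0 calls, 1 with DESeq2 and 0 to 1 leaving out each library, where 6.27% of all genes were called without a block and 13.3% with DESeq2. GSK-J1 with 4 Gy against GSK-J1 had 0, then 1 with DESeq2, 1 with the block over 12 libraries, 6 with the block over 6, and 0 to 1 leaving out each library. The shares of all genes were 5.11% without a block, 12.3% with DESeq2, 8.67% with the block over 12 and 18.4% over 6. Replicate numbers did not pair Cal33 libraries with sham (r from -0.645 to 0.474), and the block called none of the 45 there. Cal33 sham against SAS sham had 24 calls, where 54.5% of all genes were called, and 18 to 25 leaving out each library (10 to 21 higher and 4 to 10 lower).

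Among the fold changes recomputed for single genes of the 45, 4 changed sign, each leaving out 1 Cal33 library. Leaving out each library, PMF1 under GSK-J1 against sham ranged from -0.01 (without GSK-J1 replicate 1) to 0.23. Without sham replicate 3 the lowest or highest value was reached by SGOL2 in the same comparison (-0.48 to 0.02) and in the interaction (-0.01 to 0.49), and by CENPH in the interaction (-0.04 to 0.39). None of these passed a test. The causes were not tested.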
